A study of Mus musculus with 10 samples.

Results

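Gene expression in 3 libraries labelled NKP was compared with that in 4 libraries labelled Ptch, gene by gene and library by library. These are 7 of the 10 libraries of a mouse study of medulloblastoma, a childhood tumour of the cerebellum, and they were chosen by their group label alone. Of 39769 genes in the deposited count table, 15613 had at least 10 counts in 3 or more of the 7 libraries and were tested. The study asked how losing a copy of Kmt2d alters transcription in medulloblastoma driven by the loss of a copy of Ptch1.

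The Ptch group is cerebellum of the genotype Ptch+/-, labelled as control, with Ptch 1 and Ptch 2 at 4 months of age and Ptch 3 and Ptch 4 at 2 months. The NKP group is tissue labelled medulloblastoma of the genotype Nestin-Cre Kmt2dfl/+ Ptch+/-, with NKP 1, NKP 2 and NKP 3 all at 4 months. The loss of a Ptch1 copy is thus shared by all 7 libraries, and the groups differ by label in Cre, in floxed Kmt2d, in tissue and partly in age. Nestin-Cre acts in neural stem and progenitor cells and their descendants, so deletion is not confined to the granule neuron lineage. No Cre or floxed allele is listed for the Ptch group. By label, Ptch 1 to 4 are male, female, female and male, so no 2 of them share both age and sex. NKP 1 and NKP 2 are labelled male and NKP 3 female. Whether NKP 1 and NKP 2 are from different animals is not stated, and some sex labels are in doubt (below). Each p-value therefore reflects only the spread seen here, which may be technical in part. Levels are given as CPM, a gene's count relative to the scaled total of its library, and a log2 fold change is NKP minus Ptch with its standard error (SE).

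Ptch1 encodes the receptor that holds Smoothened, and through it the Gli transcription factors, in check until Sonic hedgehog binds. In the early postnatal cerebellum this pathway drives the division of granule neuron precursors, which then leave the cell cycle and mature. Mice with 1 functional copy of Ptch1 can develop medulloblastoma from these precursors, so tumour tissue of this kind is known for dividing cells and active Gli targets. Kmt2d is a histone H3 lysine 4 methyltransferase that acts at enhancers.

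Kmt2d (chromosome 15, 98831669 to 98874077, GRCm38.p6) was read first as a check of the labels. Its level was 68.7, 57.7, 57.3 and 53.6 CPM across Ptch 1 to 4 and 33.8, 47.5 and 59.1 CPM across NKP 1 to 3. NKP 1 and NKP 2 lay below every Ptch library, while the library labelled NKP 3 lay within the Ptch range (log2 fold change -0.34, SE 0.17, edgeR adjusted p = 0.315). Counts were made over the whole gene, and a deleted exon alone may leave them little altered. The Y-linked genes Ddx3y, Uty, Kdm5d and Eif2s3y went against the sex label in 3 of the 7 libraries (Ptch 1, Ptch 3 and NKP 3). Without those 3, edgeR called 38 genes, and the counts without each library in turn are given with the totals. Xist, expressed in female cells, was at 252, 300, 10.4 and 0.453 CPM across Ptch 1 to 4 and 12.2, 75.7 and 0.446 CPM across NKP 1 to 3. NKP 2, labelled male, thus held Xist beside Y-linked genes at 69.3 CPM summed. NKP 1 and Ptch 3 held less Xist, though more than Ptch 4 or NKP 3, beside Y-linked genes at 76.8 and 101 CPM summed. Whether libraries hold material of both sexes was not tested. NKP 3 was closer in its counts to Ptch 4, with a chi-square of 3.84 per degree of freedom over genes, than to NKP 2 (15.4) or NKP 1 (17.1). Ptch 1 and Ptch 2 differed from Ptch 3 and Ptch 4 with values between 26.7 and 29.2. The first principal component, with 56.7% of the variance, ran from Ptch 1 and Ptch 2 (-51.7 and -48.0) through Ptch 3 and Ptch 4 (-4.56 and -1.69) and NKP 3 (10.97) to NKP 1 and NKP 2 (46.5 and 48.5). Total counts ran from 12300430 in Ptch 1 to 19348991 in Ptch 3.

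The libraries labelled medulloblastoma held less, not more, of the transcripts of dividing cells than those labelled cerebellum. Mki67, a marker of cycling cells, was at 84.4, 81.04, 29.3 and 27.8 CPM across Ptch 1 to 4 and 0.666, 0.728 and 11.98 CPM across NKP 1 to 3. Atoh1, the transcription factor that defines precursors of granule neurons, stood at 14.8, 16.6, 7.05 and 5.82 CPM across Ptch 1 to 4 and 0, 0.224 and 3.73 CPM across NKP 1 to 3. Both were highest in the pair of 4-month Ptch libraries and lowest in NKP 1 and NKP 2, and the groups did not overlap. These values go against reading the tissue labels as more and less proliferative tissue, so the groups are called by their labels throughout.

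No gene passed edgeR's quasi-likelihood test at an adjusted p of 0.05, so 0% of the 15613 genes was called. At an unadjusted p under 0.05 there were 2863 genes (18.3%), and DESeq2 called 785 (5.03%), 114 higher and 671 lower. Groups did not overlap in CPM for 1097 genes higher in NKP (7.03%) and 1394 genes lower (8.93%). The count moved with the Ptch libraries used. Against the 4-month Ptch libraries alone, which match NKP in age, edgeR called 1011 genes higher (6.48%) and 1516 lower (9.71%). The Y-linked genes summed to 0.386 and 0.468 CPM in Ptch 1 and Ptch 2 but to 76.8, 69.3 and 88.6 CPM in NKP 1 to 3. In the age-matched fit, group and Y-linked expression therefore cannot be told apart. Against the 2-month Ptch libraries alone, an alternative chosen after seeing the data, it called 1 gene higher (0.0064%) and 4 lower (0.0256%). Without Ptch 4 it called 250 genes, without Ptch 3 it called 40, without NKP 3 it called 6 and without Ptch 2 it called 2. Without Ptch 1, NKP 1 or NKP 2 the count was 0. With age as a covariate edgeR called 3444 genes (22.1%). As every NKP library is at 4 months, that fit too sets NKP against the 4-month Ptch libraries. Among the Ptch libraries age, Y-linked expression and the level of proliferation genes moved together and cannot be told apart.

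NKP 1 and NKP 2 stood outside the Ptch range for most genes. NKP 1 lay above all 4 Ptch libraries for 4828 genes (30.9%) and below all for 4555 (29.2%), and NKP 2 for 4745 (30.4%) and 4788 (30.7%). NKP 3 lay above for 3512 (22.5%) and below for 3264 (20.9%), and within the range for 56.6%. Any further library would lie outside the range of 4 for many genes by chance, so these are not counts of differences. The larger departures were downward. NKP 1 lay more than 2-fold below the lowest Ptch library for 155 genes and NKP 2 for 143, against 23 in NKP 3, while more than 2-fold above the highest Ptch library they held 9, 7 and 0 genes. Among the 1394 genes lower in all 3 NKP libraries, NKP 3 was the library nearest to the Ptch group for 979 (70.2%). In 1093 of them (78.4%) the 2-month Ptch libraries lay between the 4-month Ptch libraries and NKP, as they did in 662 of the 1097 higher genes (60.3%). The bar plots of genes outside the Ptch range show this order.

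**Figure D1:**
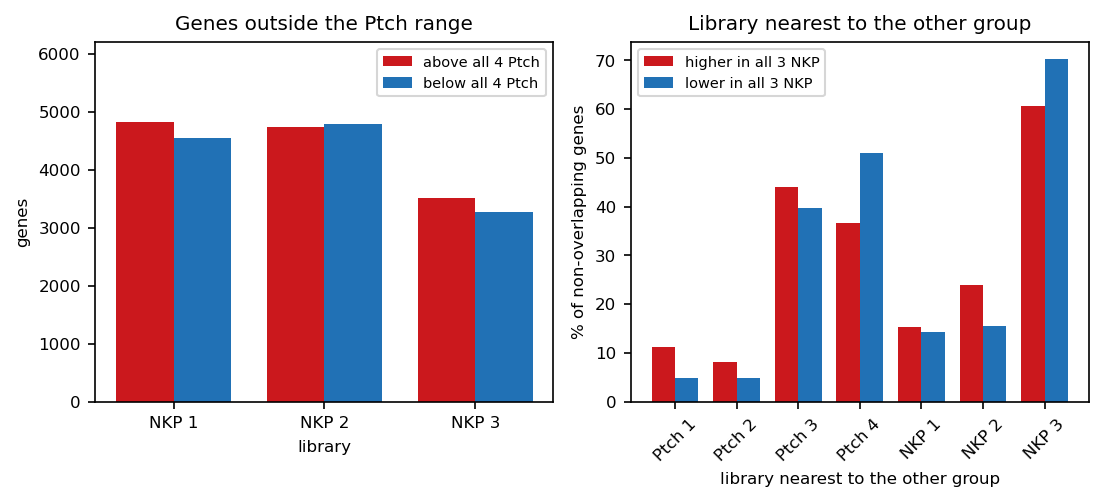
Left, bars give the number of tested genes in each NKP library above (red) or below (blue) all 4 Ptch libraries in CPM. Right, for genes whose groups did not overlap, bars give the percentage for which each library was its group's nearest to the other group, and NKP 3 holds 60.7% of the higher and 70.2% of the lower genes.

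Gene lists for pathways and cell types were then read by library, as in the colour map of lists by library. The mitosis list had the lowest median log2 fold change of the lists, -3.01, and the DNA replication list followed with -1.33, beside 0.02 over all tested genes. The hedgehog (-0.39), granule precursor (-0.56) and microglia (-0.35) lists were also low. The red blood cell (0.76), meninges (0.61), myelin (0.50), pericyte (0.50) and endothelial (0.46) lists were high. Single libraries moved 4 of these medians by more than 1.5 times: hedgehog was -0.23 without NKP 3, meninges 0.32 without NKP 2, and myelin and red blood cell 0.29 and 0.24 without NKP 1. Against the 2-month Ptch libraries alone the low lists stood at -1.97 (mitosis), -0.78 (DNA replication), -0.26 (hedgehog), -0.28 (granule precursor) and -0.32 (microglia). The high lists stood at 0.72 (red blood cell), 0.44 (meninges), 0.34 (myelin), 0.31 (pericyte) and 0.28 (endothelial) in the same comparison. The members of these lists are placed among all genes in the plot of fold change against mean count.

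**Figure D2:**
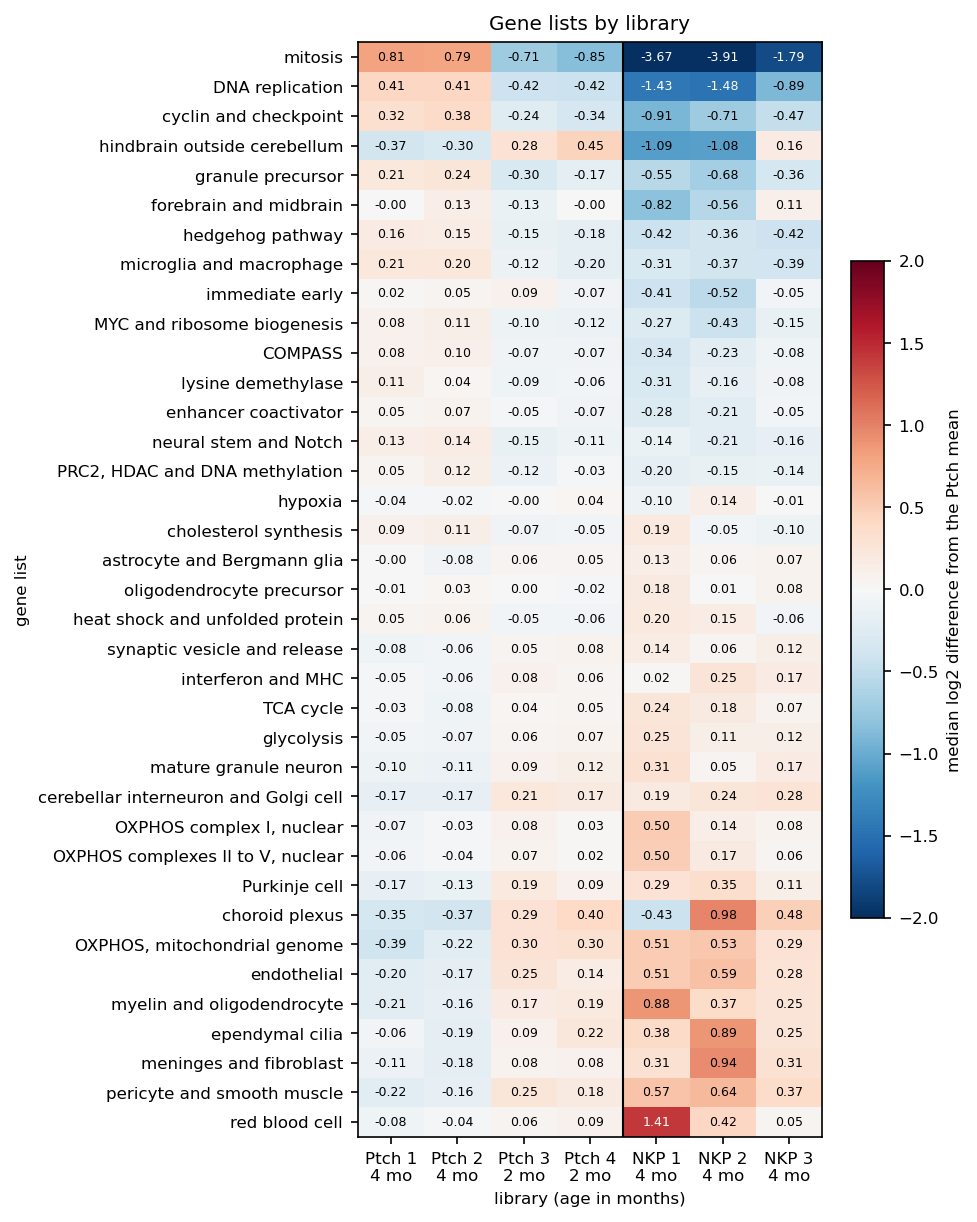
Each cell gives the median, over the tested genes of a list, of the log2 difference between that library and the mean of the 4 Ptch libraries, with colour from blue (lower) to red (higher), limited to 2 in either direction. Mitosis genes stood at -3.67, -3.91 and -1.79 in NKP 1 to 3, and at 0.81 and 0.79 in Ptch 1 and Ptch 2 but -0.71 and -0.85 in Ptch 3 and Ptch 4.

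**Figure D3:**
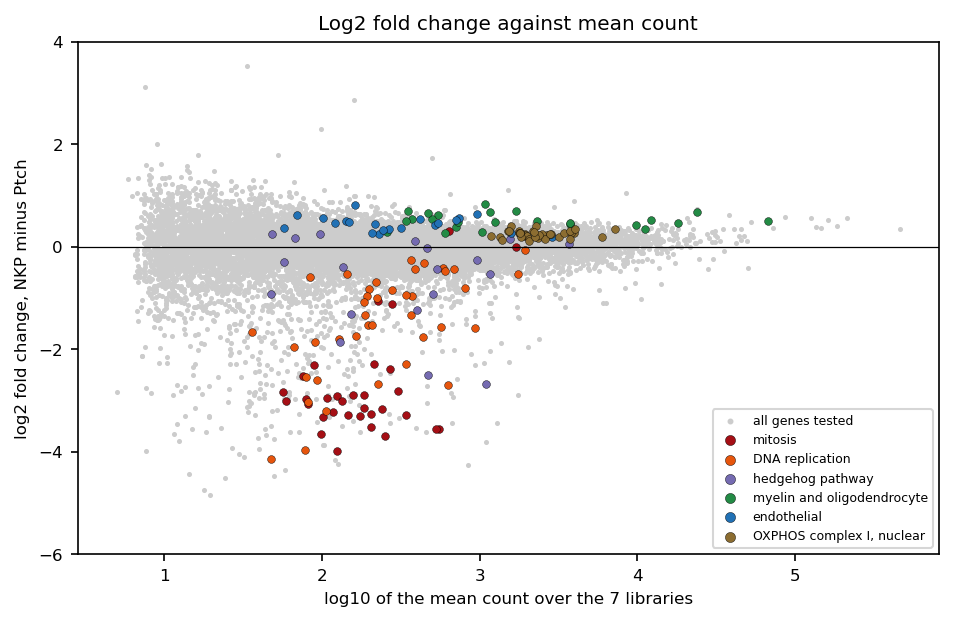
Each grey point is a tested gene, with the log10 of its mean count over the 7 libraries on the horizontal axis and its log2 fold change, NKP minus Ptch, on the vertical axis; 4 genes lie beyond the vertical range. Coloured points are members of 6 lists, with mitosis and DNA replication below 0 apart from Anln, and myelin, endothelial and complex I genes above 0.

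Mitosis genes were lower in NKP in a graded way across the libraries. Of 32 tested, 31 were below 0, where 46.7% of all genes were, and 30 did not overlap between groups, against 8.93% of all genes. DESeq2 called 24 of them lower, against 4.3% of all genes, and the age-matched fit 16 (9.71% of all genes). Summed over the list, levels were 984, 965, 428 and 393 CPM across Ptch 1 to 4 and 199.6, 189.6 and 282 CPM across NKP 1 to 3. In bulk tissue, fewer cells of a type and less RNA per cell cannot be told apart.

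Bub1, a kinase of the spindle checkpoint, was at 10.2, 12.3, 3.99 and 4.21 CPM across Ptch 1 to 4 and 0.833, 0.392 and 1.67 CPM across NKP 1 to 3. Every NKP library lay below every Ptch library, with NKP 3 the nearest (log2 fold change -2.96, SE 0.61, edgeR adjusted p = 0.125; over the alternatives the adjusted p ran from 5.13e-06 to 0.394). Ttk, another checkpoint kinase, was at 6.95, 7.96, 3.68 and 3.04 CPM across Ptch 1 to 4 and 1.08, 0.056 and 1.17 CPM across NKP 1 to 3. Ccnb2, a B-type cyclin of mitotic entry, was at 16.5, 15.2, 6.48 and 3.69 CPM across Ptch 1 to 4 and 0.916, 0.895 and 2.12 CPM across NKP 1 to 3. Neither overlapped between groups, and in both the 2-month Ptch libraries lay below the 4-month ones. Aurka, a kinase of the centrosome, had a log2 fold change of -2.92, and Foxm1, the transcription factor of late cell cycle genes, -3.30. Plk1, the polo kinase, stood at -3.29. Top2a, the topoisomerase that untangles replicated chromosomes, was at 79.8, 82.1, 26.9 and 23.2 CPM across Ptch 1 to 4 and 1.25, 1.01 and 10.7 CPM across NKP 1 to 3. Its NKP libraries spread over about 10-fold, with a larger SE than for Bub1 (log2 fold change -3.55, SE 1.05, edgeR adjusted p = 0.195). Anln, a scaffold of the cleavage furrow that oligodendrocytes also express, was the member on the other side of 0, at 29.4, 31.4, 40.5 and 39.1 CPM across Ptch 1 to 4 and 42.4, 50.6 and 38.2 CPM across NKP 1 to 3, with overlapping groups.

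The promoters of Bub1, Ccnb2 and Ttk are shown because these mitosis genes were low together and carry the short elements described for cell cycle promoters. Sequences are from RefSeq on GRCm38.p6, 5′ to 3′ on the gene's strand, 300 bases each and mostly upstream of the annotated start. Capitals mark the cell cycle homology region (TTTGAA or TTCGAA) and the CCAAT box, on either strand, so that ATTGG and TTCAAA are matches on the opposite strand. No match overlapped one of another motif.
Bub1 (chr2:127831810-127832109, minus strand): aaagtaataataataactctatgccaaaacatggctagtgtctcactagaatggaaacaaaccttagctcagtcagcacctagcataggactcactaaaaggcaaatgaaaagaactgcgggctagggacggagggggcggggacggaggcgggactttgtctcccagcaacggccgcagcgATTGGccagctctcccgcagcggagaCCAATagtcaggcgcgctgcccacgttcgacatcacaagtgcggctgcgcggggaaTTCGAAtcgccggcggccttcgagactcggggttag
Ccnb2 (chr9:70421505-70421804, minus strand): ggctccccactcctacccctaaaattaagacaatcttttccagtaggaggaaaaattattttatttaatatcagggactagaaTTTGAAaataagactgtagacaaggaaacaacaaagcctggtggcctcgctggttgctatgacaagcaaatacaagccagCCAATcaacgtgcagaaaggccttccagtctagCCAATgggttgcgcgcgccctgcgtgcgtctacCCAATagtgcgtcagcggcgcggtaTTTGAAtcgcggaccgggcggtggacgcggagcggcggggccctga
Ttk (chr9:83834439-83834738, plus strand): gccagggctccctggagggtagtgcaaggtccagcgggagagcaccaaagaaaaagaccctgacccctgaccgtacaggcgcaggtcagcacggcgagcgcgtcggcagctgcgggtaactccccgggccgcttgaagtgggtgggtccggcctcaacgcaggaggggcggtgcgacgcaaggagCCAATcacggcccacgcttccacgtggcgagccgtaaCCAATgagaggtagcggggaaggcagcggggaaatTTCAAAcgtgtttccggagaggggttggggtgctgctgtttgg

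The cell cycle homology region was found in 23 of 29 promoters of 27 mitosis genes (79.3%), against 19.2% of all 32851 promoters in the table and 13.8% of those of tested genes. A CCAAT box was found in 75.9% of the mitosis promoters and 37.4% of all. In the printed promoters the homology region nearest the start began at 14 bases from it in Bub1, 4 in Ccnb2 and 7 in Ttk, counted downstream. These are matches of letters, and no binding was measured.

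DNA replication genes were lower by less than the mitosis genes. All 40 tested members were below 0 (46.7% of all genes), and 33 did not overlap between groups (8.93%). DESeq2 called 30 lower (4.3% of all genes) and the age-matched fit 35 (9.71%). Summed levels were 1131 ± 333 CPM for Ptch (SD, n = 4) and 605 ± 63.97 CPM for NKP (SD, n = 3). Mcm5, a subunit of the replicative helicase, was at 64.4, 63.4, 33.4 and 31.4 CPM across Ptch 1 to 4 and 14.6, 12.98 and 20.9 CPM across NKP 1 to 3. Lig1, the ligase that joins Okazaki fragments, was at 37.4, 36.3, 23.2 and 23.7 CPM across Ptch 1 to 4 and 9.99, 10.1 and 15.6 CPM across NKP 1 to 3. Both were highest in the 4-month Ptch libraries and lowest in NKP 1 and NKP 2, without overlap between groups, and Lig1 had a small SE (log2 fold change -1.33, SE 0.23, edgeR adjusted p = 0.112). Cdc45 and Gins1, which complete the helicase, had log2 fold changes of -1.80 and -2.54. Ticrr, which loads Cdc45 at origins, stood at -4.13 and was at 6.33, 7.44, 2.44 and 3.11 CPM across Ptch 1 to 4 and 0.0833, 0.056 and 0.613 CPM across NKP 1 to 3.

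The promoters of Lig1 and Pold1, the catalytic subunit of DNA polymerase delta, are shown as replication genes with a match to the E2F core TTTNNCGC, on either strand. Capitals mark that match, and strand, build and source are as above.
Lig1 (chr7:13278576-13278875, plus strand): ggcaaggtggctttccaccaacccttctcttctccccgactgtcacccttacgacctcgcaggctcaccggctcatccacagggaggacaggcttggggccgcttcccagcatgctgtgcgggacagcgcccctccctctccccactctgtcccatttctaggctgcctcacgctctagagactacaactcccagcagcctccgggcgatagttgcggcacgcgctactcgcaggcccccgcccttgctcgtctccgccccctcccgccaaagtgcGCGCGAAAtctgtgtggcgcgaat
Pold1 (chr7:44548766-44549065, minus strand): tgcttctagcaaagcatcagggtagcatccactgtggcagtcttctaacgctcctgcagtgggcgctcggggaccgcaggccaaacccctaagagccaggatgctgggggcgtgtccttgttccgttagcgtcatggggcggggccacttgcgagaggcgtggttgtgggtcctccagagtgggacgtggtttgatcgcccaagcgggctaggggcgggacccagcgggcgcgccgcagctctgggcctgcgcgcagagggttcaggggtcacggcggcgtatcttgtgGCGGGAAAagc

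An E2F core was found in 13 of 37 promoters of 32 replication genes (35.1%), against 5.17% of all promoters and 7.83% of those of tested genes. In mitosis promoters the share was 13.8%. The cell cycle homology region was found in 18.9% of the replication promoters, close to its share in all promoters.

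Regulators of the cell cycle split by gene. Of 24 tested, 14 were lower and 1 higher without overlap (8.93% and 7.03% of all genes), and DESeq2 called 12 lower (4.3%). The higher one was Ccne1, a cyclin of S phase entry, with a log2 fold change of 0.22, and 6 members in all were above 0. Ccnd2, the D-type cyclin of granule precursors, was at 116, 111, 62.9 and 53.4 CPM across Ptch 1 to 4 and 9.16, 13.1 and 29.3 CPM across NKP 1 to 3. Cdk6, a partner of the D-type cyclins, was at 59.6, 69.3, 14.6 and 12.4 CPM across Ptch 1 to 4 and 0.583, 1.62 and 7.36 CPM across NKP 1 to 3. Ccnd1, also a D-type cyclin and a hedgehog target, spanned far less, at 92.2, 92.9, 73.3 and 69.5 CPM across Ptch 1 to 4 and 58.8, 50.3 and 61.3 CPM across NKP 1 to 3. All 3 were lower in every NKP library than in any Ptch library. The repressor E2F genes were low as well, E2f7 at -2.21 and E2f8 at -3.29 on the log2 scale. Cdkn2a, which encodes cell cycle inhibitors, was at 1.16, 1.82, 1.19 and 0.841 CPM across Ptch 1 to 4 and 0, 0.224 and 0.279 CPM across NKP 1 to 3, low in all libraries and lowest in NKP.

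Hedgehog pathway genes were lower in part. Of 19 tested, 8 were lower without overlap and 0 higher (8.93% and 7.03% of all genes), and 6 were above 0. DESeq2 called 8 lower (4.3% of all genes), and the age-matched fit called 8 lower and 1 higher (9.71% and 6.48%), with a list median of -0.59 in that fit. Of the receptors, Ptch1 (chromosome 13, 63508328 to 63573460, GRCm38.p6) was at 74.3, 77.7, 102 and 105 CPM across Ptch 1 to 4 and 87.2, 102 and 113 CPM across NKP 1 to 3. Its groups overlapped, and it was the member called higher in the age-matched fit. Its log2 fold change was 0.16, but -0.05 against the 2-month Ptch libraries. Smo, the signal transducer that Ptch1 inhibits, was at 43.02, 39.04, 30.99 and 35.1 CPM across Ptch 1 to 4 and 27.4, 27.8 and 27.5 CPM across NKP 1 to 3. Its NKP libraries were nearly level, just below the lowest Ptch library.

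Downstream of the receptors, Sufu, which restrains the Gli proteins, was at 48.7, 49.1, 27.8 and 28.99 CPM across Ptch 1 to 4 and 18.3, 17.5 and 25.3 CPM across NKP 1 to 3. Gli1, a transcription factor and the usual readout of the pathway, was at 37.8, 45.3, 22.7 and 21.7 CPM across Ptch 1 to 4 and 10.5, 12.1 and 17.6 CPM across NKP 1 to 3. It was lower in every NKP library than in any Ptch library (log2 fold change -1.24, SE 0.32, edgeR adjusted p = 0.156; over the alternatives the adjusted p ran from 2.94e-05 to 0.394). Gli2, the main activator, was at 16.9, 14.001, 9.69 and 9.38 CPM across Ptch 1 to 4 and 4.16, 3.75 and 7.02 CPM across NKP 1 to 3. The targets Mycn, a driver of precursor division, and Sfrp1, a secreted Wnt antagonist, had log2 fold changes of -2.51 and -2.67. Mycn was at 59.2, 67.1, 24.4 and 24.01 CPM across Ptch 1 to 4 and 4.41, 4.198 and 13.9 CPM across NKP 1 to 3. NKP 3 held more than 3-fold as much Mycn as NKP 1 or NKP 2, yet less than any Ptch library. In the 12 hedgehog promoters of RefSeq the Gli motif GACCACCCA was found in 0, against 0.253% of all promoters. These promoters cover part of the list, and so rare a motif would hardly be found in 12, so the 0 is not informative.

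Granule precursor genes were lower in the greater part. Of 24 tested, 13 were lower without overlap (8.93% of all genes), and DESeq2 called 10 lower (4.3%). Members above 0 numbered 4, and 2 were called higher in the age-matched fit, where 6.48% of all genes were. Neurod1, a transcription factor of differentiating granule neurons and 1 of those called, was at 206, 237, 409 and 355 CPM across Ptch 1 to 4 and 291, 358 and 291 CPM across NKP 1 to 3. It was low in the 4-month Ptch libraries alone, with a log2 fold change of 0.06 over all 7 libraries and -0.28 against the 2-month ones. Barhl1, a homeobox gene downstream of Atoh1, was at 132, 147, 58.1 and 55.2 CPM across Ptch 1 to 4 and 15.9, 10.9 and 34.2 CPM across NKP 1 to 3. Igfbpl1, a binding protein for insulin-like growth factors found in immature neurons, was at 172, 179, 51.98 and 43.1 CPM across Ptch 1 to 4 and 1.42, 0.895 and 20.5 CPM across NKP 1 to 3. Insm1 and Nhlh1, transcription factors of newly formed neurons, had log2 fold changes of -3.45 and -3.62. Insm1 was at 92.8, 102, 34.6 and 33.1 CPM across Ptch 1 to 4 and 0.583, 0.672 and 15.9 CPM across NKP 1 to 3. Igfbpl1 and Insm1 were near 1 CPM or below in NKP 1 and NKP 2 but at 20.5 and 15.9 CPM in NKP 3. Nhlh2 and Sox4, transcription factors of the same stage, were more even within NKP. Nhlh2 was at 33.5, 41.2, 20.8 and 22.5 CPM across Ptch 1 to 4 and 10.8, 11.5 and 12.8 CPM across NKP 1 to 3. Sox4 was at 31.5, 37.2, 19.6 and 17.3 CPM across Ptch 1 to 4 and 6.66, 6.83 and 12.04 CPM across NKP 1 to 3 (log2 fold change -1.62, SE 0.35, edgeR adjusted p = 0.134). Pax6, kept in mature granule neurons, was at 91.1, 90.4, 84.7 and 86.1 CPM across Ptch 1 to 4 and 73.3, 72.8 and 68.8 CPM across NKP 1 to 3. It did not overlap between groups, with a small difference of -0.30 on the log2 scale.

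**Figure D4:**
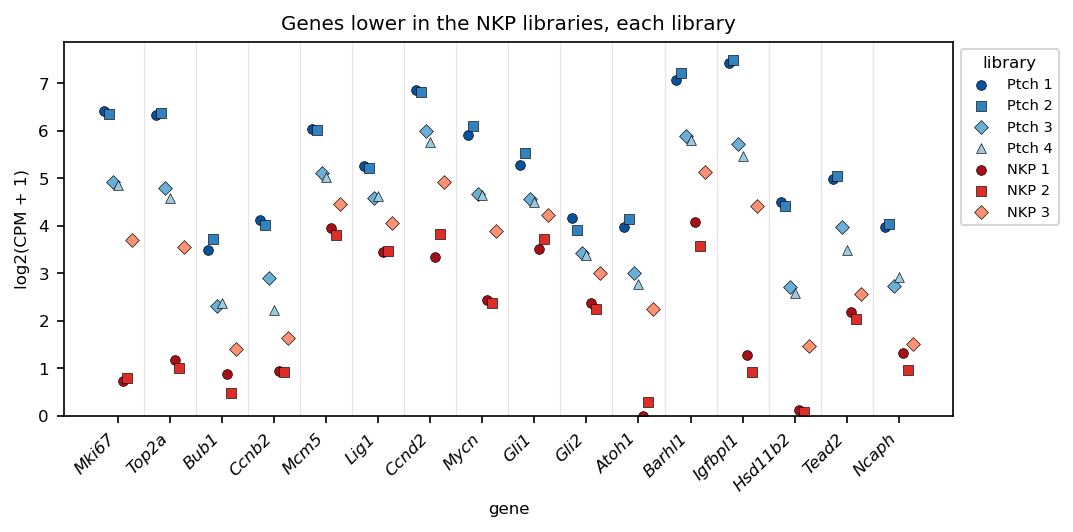
Points give log2(CPM + 1) of 16 genes that were lower in NKP, a symbol for each library (blue Ptch, red NKP). The 4-month Ptch libraries (dark blue) lie highest, NKP 1 and NKP 2 lowest, and Ptch 3, Ptch 4 and NKP 3 between them.

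Neural stem cell and Notch genes were near level as a list, with a median of -0.04 and 4 of 22 lower without overlap (8.93% of all genes). The median was -0.14 without NKP 1, -0.16 without NKP 3, -0.08 without Ptch 2, -0.10 without Ptch 3 and -0.16 in the age-matched fit. Nes, the intermediate filament whose regulatory sequence drives the Cre, was at 22.4, 20.1, 11.1 and 10.6 CPM across Ptch 1 to 4 and 9.16, 9.29 and 10.5 CPM across NKP 1 to 3. Its 2-month Ptch libraries were close to NKP. Hey1, a Notch target, was at 85.04, 81.7, 61.3 and 64.5 CPM across Ptch 1 to 4 and 52.5, 53.1 and 55.6 CPM across NKP 1 to 3, lower in NKP without overlap.

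The lower genes with the largest differences were mostly of the cell cycle and the granule precursor. By the rule for the largest differences they were Hsd11b2, Fgfr4, Aurkb, Dtl, Melk, Igfbpl1, Mroh2a, Ube2c, Pbk, Nhlh1, Mki67 and Top2a, with log2 fold changes between -4.24 and -3.55. Hsd11b2, which inactivates glucocorticoids, was at 21.6, 20.5, 5.55 and 5.05 CPM across Ptch 1 to 4 and 0.0833, 0.056 and 1.78 CPM across NKP 1 to 3. Fgfr4, a receptor for fibroblast growth factors, was at 21.8, 20.2, 4.72 and 3.17 CPM across Ptch 1 to 4 and 0, 0.056 and 1.84 CPM across NKP 1 to 3. Each was near 0 in NKP 1 and NKP 2 and below 2 CPM in NKP 3 (log2 fold change -4.24, SE 1.15, edgeR adjusted p = 0.174 for Hsd11b2). Aurkb, the kinase of chromosome alignment and cytokinesis, and Ube2c, which helps the anaphase-promoting complex, had log2 fold changes of -3.99 and -3.69. Melk and Pbk, kinases of dividing cells, stood at -3.86 and -3.62, and Dtl, which targets replication factors for destruction, at -3.87.

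Few genes passed the threshold against both ages of Ptch libraries. DESeq2, the age-matched fit and the fit with age as a covariate called 91 genes higher (0.583%) and 636 lower (4.07%) in common. As every NKP library is at 4 months, both age fits set NKP against the 4-month Ptch libraries. They are close to the same comparison, at -2.55 with age as a covariate and -2.57 age-matched for Cd24a on the log2 scale. Of the 636, 4 also passed against the 2-month Ptch libraries, and of the 91, 0 did. Missing the threshold in that smaller fit does not show that a difference is absent. The mitosis list there still had a median of -1.97, against -3.01 over all 7 libraries. Cd24a, a surface glycoprotein of immature neurons, was at 147, 150.2, 62.3 and 56.3 CPM across Ptch 1 to 4 and 18.8, 27.1 and 29.5 CPM across NKP 1 to 3. Tead2, a transcription factor of the Hippo pathway, was at 30.8, 32.1, 14.8 and 10.2 CPM across Ptch 1 to 4 and 3.58, 3.13 and 4.96 CPM across NKP 1 to 3. Ncaph, a condensin subunit that compacts mitotic chromosomes, was at 14.8, 15.5, 5.701 and 6.6 CPM across Ptch 1 to 4 and 1.498, 0.952 and 1.84 CPM across NKP 1 to 3. In each of these the 3 NKP libraries lay close together, well under the lowest Ptch library. Against the 2-month libraries their edgeR adjusted p was 0.016, 0.0397 and 0.0462, and over the alternatives it ran from 1.76e-07 to 0.394 for Cd24a. The remaining gene was Gm38667, a predicted gene, listed at 0 in all 3 NKP libraries and at 2.86, 0.52, 2.799 and 2.33 CPM in Ptch 1 to 4. The gene called higher against the 2-month libraries was Pcdha7, a clustered protocadherin, which is not among the 91 (DESeq2 adjusted p = 0.412). Pcdha7 was at 0, 1.35, 0 and 0 CPM across Ptch 1 to 4 and 3.996, 3.97 and 5.07 CPM across NKP 1 to 3. Its isoforms share exons with the rest of the cluster. The annotated span of Gm38667 (chromosome 18, 36973802 to 37841873) contains that of Pcdha7 (36973811 to 37187663). The estimated counts of both genes are therefore uncertain.

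Among the genes shared by the 3 fits, those chosen by the smallest DESeq2 p included Eln, which encodes elastin, and Sfrp2, a secreted Wnt modulator. Eln was at 47.7, 48.4, 23.4 and 23.7 CPM across Ptch 1 to 4 and 11.2, 10.3 and 14.9 CPM across NKP 1 to 3. Sfrp2 was at 16.1, 15.1, 8.86 and 5.95 CPM across Ptch 1 to 4 and 1.17, 2.29 and 3.73 CPM across NKP 1 to 3. In some genes the 4 Ptch libraries differed by no more than 1.3-fold while the groups did not overlap and differed by 0.5 or more on the log2 scale, 17 higher and 24 lower. Mab21l2 was at 22.4, 23.5, 20.1 and 18.2 CPM across Ptch 1 to 4 and 5.99, 6.38 and 12.04 CPM across NKP 1 to 3. Lhx1, a homeobox gene of Purkinje cells, was at 53.5, 51.6, 44.5 and 46.4 CPM across Ptch 1 to 4 and 31.6, 29.2 and 38.02 CPM across NKP 1 to 3. Plxnc1, a semaphorin receptor, was at 30.9, 29.3, 23.99 and 25.3 CPM across Ptch 1 to 4 and 15.9, 17.1 and 20.9 CPM across NKP 1 to 3. These were lower in NKP while the 2-month and 4-month Ptch libraries lay near each other, and NKP 3 was again the nearest to Ptch.

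Lists of mature cerebellar neurons had medians slightly above that of all genes, and few of their members separated NKP from all 4 Ptch libraries. The mature granule neuron list had a median of 0.18, with 19 of 20 above 0, where 53.3% of all genes were, but 2 higher without overlap (7.03% of all genes). Purkinje cell genes had a median of 0.29, interneuron and Golgi cell genes 0.21, and synaptic vesicle genes 0.11, with 1, 2 and 5 of 20, 18 and 24 higher without overlap. Apart from the synaptic list, these counts are near the share over all genes. Without NKP 1 the granule neuron median was 0.09 and the synaptic one 0.06. Against the 2-month Ptch libraries the medians of the 4 lists were 0.07, 0.10, 0.07 and 0.04, and age-matched they were 0.30, 0.48, 0.41 and 0.18. The age-matched fit called 6, 9, 9 and 6 of their members higher (6.48% of all genes), and 1 synaptic gene lower (9.71%). Pvalb, a calcium buffer of Purkinje cells and interneurons, was at 932, 940.5, 1234 and 1168 CPM across Ptch 1 to 4 and 2009, 1516 and 1231 CPM across NKP 1 to 3. NKP 3 was level with Ptch 3, so the groups overlapped. Aldoc, the aldolase of a subset of Purkinje cells and of astrocytes, was at 2295, 2199, 2769.6 and 2673 CPM across Ptch 1 to 4 and 3530.2, 3120.5 and 2835 CPM across NKP 1 to 3, without overlap (log2 fold change 0.35, SE 0.12, edgeR adjusted p = 0.174). Vamp1, a vesicle protein of fast synapses, was at 260.1, 259.7, 316 and 328 CPM across Ptch 1 to 4 and 395, 398 and 345 CPM across NKP 1 to 3. Stx1a, a syntaxin of the release machinery, went against its list at 17.8, 20.04, 6.63 and 7.25 CPM across Ptch 1 to 4 and 3.66, 4.48 and 5.295 CPM across NKP 1 to 3. It was lower in every NKP library, with the 4-month Ptch libraries more than 2-fold above the 2-month ones.

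Myelin genes were higher as a group. All 24 tested were above 0, 13 without overlap (53.3% and 7.03% of all genes), and DESeq2 called 9 higher, against 0.73% of all genes. Mag, a myelin adhesion protein, was at 185, 183, 212 and 222 CPM across Ptch 1 to 4 and 339, 231 and 254 CPM across NKP 1 to 3. Mog, on the outer surface of myelin, was at 91.3, 84.4, 83.1 and 81.8 CPM across Ptch 1 to 4 and 203, 118 and 94.8 CPM across NKP 1 to 3. NKP 1 was the highest for both, and every NKP library lay above every Ptch library. Ugt8a, the enzyme of myelin galactolipids, was at 42.02, 42.1, 57.8 and 60.1 CPM across Ptch 1 to 4 and 116, 93.97 and 60.2 CPM across NKP 1 to 3 (log2 fold change 0.83, SE 0.23, edgeR adjusted p = 0.167). Without NKP 1, the median of the list was 0.29, against 0.50 with it.

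Other glia differed in direction by gene. Astrocyte and Bergmann glia genes had a median of 0.07, and 0.13 in the age-matched fit. S100b, a calcium-binding protein of astrocytes, was at 481, 468, 614 and 608 CPM across Ptch 1 to 4 and 773, 706 and 656 CPM across NKP 1 to 3. Gfap, their intermediate filament, was at 370.1, 361, 288 and 296 CPM across Ptch 1 to 4 and 312, 279 and 288 CPM across NKP 1 to 3. Gfap overlapped, and its log2 fold change of -0.17 became 0.01 against the 2-month Ptch libraries. Oligodendrocyte precursor genes were split, 7 of 14 above 0, with 2 higher and 2 lower without overlap (7.03% and 8.93% of all genes). Pdgfra, the growth factor receptor of these precursors, was at 47.8, 48.4, 29.7 and 27.8 CPM across Ptch 1 to 4 and 16.7, 17.3 and 23.6 CPM across NKP 1 to 3. C1ql1, a secreted C1q-like protein, was at 54.99, 65.2, 17.8 and 17.6 CPM across Ptch 1 to 4 and 8.49, 6.83 and 12.8 CPM across NKP 1 to 3. Both were lower in NKP without overlap. Bcas1 and Enpp6, of newly formed oligodendrocytes, were the members higher without overlap, at 0.36 and 0.53 on the log2 scale. The DESeq2 calls in that list were 2 lower and 0 higher.

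Microglia and macrophage genes were lower. Summed levels were 381 to 398 CPM over the NKP libraries and 451 to 608 CPM over the Ptch libraries, and 8 of 21 genes were lower without overlap (8.93% of all genes). Lyz2, the lysozyme of macrophages, was at 58.2, 50.6, 39.2 and 32.2 CPM across Ptch 1 to 4 and 15.2, 22.1 and 22.9 CPM across NKP 1 to 3 (log2 fold change -1.16, SE 0.22, edgeR adjusted p = 0.116). Fcrls, a marker of microglia, was at 30.1, 28.8, 18.1 and 17.6 CPM across Ptch 1 to 4 and 12.7, 12.2 and 13.2 CPM across NKP 1 to 3. C1qa, a chain of complement C1q, was at 60.01, 61.9, 46.8 and 38.7 CPM across Ptch 1 to 4 and 33.4, 32.97 and 34.4 CPM across NKP 1 to 3. The NKP libraries were close to each other for all 3. Of the list, 5 members were above 0.

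Vessel wall and lining genes were higher. Of 21 endothelial genes all were above 0 and 9 did not overlap (53.3% and 7.03% of all genes), with summed levels of 698 to 786 CPM over the NKP libraries and 508 to 642 CPM over the Ptch libraries. Ly6c1, on the surface of endothelial cells, was at 37.3, 35.1, 39.4 and 35.3 CPM across Ptch 1 to 4 and 59.6, 56.5 and 43.7 CPM across NKP 1 to 3. Tek, the angiopoietin receptor, was at 6.57, 6.45, 8.97 and 7.44 CPM across Ptch 1 to 4 and 10.9, 15.4 and 12.7 CPM across NKP 1 to 3. Adgrf5, an endothelial adhesion receptor, was at 17.997, 15.3, 18.8 and 17.9 CPM across Ptch 1 to 4 and 24.5, 27.2 and 23.97 CPM across NKP 1 to 3. The Ptch libraries were nearly level for Ly6c1 and Adgrf5 whatever their age, and every NKP library was above them (log2 fold change 0.53, SE 0.11, edgeR adjusted p = 0.118 for Ly6c1). Pericyte and smooth muscle genes had 5 of 13 higher without overlap, against 7.03% of all genes. Tagln, an actin-binding protein of contractile smooth muscle, was at 4.63, 4.84, 9.22 and 8.74 CPM across Ptch 1 to 4 and 14.9, 15.7 and 10.5 CPM across NKP 1 to 3. Acta2, the smooth muscle actin, was at 8.81, 7.44, 12.9 and 12.3 CPM across Ptch 1 to 4 and 17.3, 23.1 and 13.2 CPM across NKP 1 to 3. For these the 2-month Ptch libraries lay close below NKP 3.

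Genes of the meninges and fibroblasts summed to 1294, 1329, 1798 and 1843 CPM across Ptch 1 to 4 and 2459, 2889 and 2061 CPM across NKP 1 to 3, highest in NKP 2. Ptgds, the prostaglandin D synthase of the meninges and oligodendrocytes, was at 888, 919.7, 1368 and 1403 CPM across Ptch 1 to 4 and 1946, 2193 and 1589 CPM across NKP 1 to 3. Mgp, a matrix protein, was at 27.96, 24.3, 30.2 and 33.1 CPM across Ptch 1 to 4 and 50.6, 56.3 and 35.2 CPM across NKP 1 to 3. Slc6a13, a GABA transporter of the meninges, was at 14.4, 11.7, 16.3 and 13.8 CPM across Ptch 1 to 4 and 20.5, 27.6 and 19.3 CPM across NKP 1 to 3. All 3 were higher in NKP without overlap, and DESeq2 called 5 of 18 list members higher (0.73% of all genes). Without NKP 2 the median of the list was 0.32, against 0.61 with it. Spp1, which encodes osteopontin, was at 21.01, 18.5, 33.996 and 36.04 CPM across Ptch 1 to 4 and 56.7, 69.1 and 42.9 CPM across NKP 1 to 3 (log2 fold change 1.04, SE 0.27, edgeR adjusted p = 0.158). Whether the amount of attached meninges or vessel differed between the dissections was not tested.

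Choroid plexus genes followed single libraries, and ependymal genes did so in part. Choroid plexus genes summed to 2484, 2611, 3171 and 3863 CPM across Ptch 1 to 4 and 2339.9, 5519 and 3980.3 CPM across NKP 1 to 3, with NKP 1 lowest and NKP 2 highest of the 7. Kcnj13, a potassium channel of that epithelium, was at 8.496, 7.65, 15.3 and 18.5 CPM across Ptch 1 to 4 and 8.99, 34.8 and 20.9 CPM across NKP 1 to 3, with overlap. Otx2, a homeobox gene of the choroid plexus also known from other medulloblastoma subgroups, was at 26.7, 23.99, 24.05 and 25.4 CPM across Ptch 1 to 4 and 11.3, 20.8 and 22.9 CPM across NKP 1 to 3, lower in every NKP library. Ependymal cilia genes summed to 59.8 to 89.3 CPM over the NKP libraries and 54.1 to 62.5 CPM over the Ptch libraries. Their median log2 fold change was 0.48, or 0.21 without NKP 2, and 3 of 13 were higher without overlap (7.03% of all genes). The red blood cell list had sums of 917, 947, 1033 and 1036 CPM across Ptch 1 to 4 and 2806, 1486 and 1002 CPM across NKP 1 to 3, with NKP 1 highest, NKP 2 next and NKP 3 within the Ptch range. Hbb-bs, an adult beta globin, was at 354, 350.3, 404 and 391 CPM across Ptch 1 to 4 and 1269, 669 and 386 CPM across NKP 1 to 3, and again NKP 3 lay inside the Ptch range. Globin genes have near-identical copies, so the split of counts between copies is uncertain. Alas2, the first enzyme of heme synthesis in erythroid cells, was at 6.26, 5.26, 6.37 and 5.5 CPM across Ptch 1 to 4 and 19.6, 12.8 and 7.804 CPM across NKP 1 to 3 (log2 fold change 1.19, SE 0.26, edgeR adjusted p = 0.125). Without NKP 1, the median of the red blood cell list was 0.24.

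**Figure D5:**
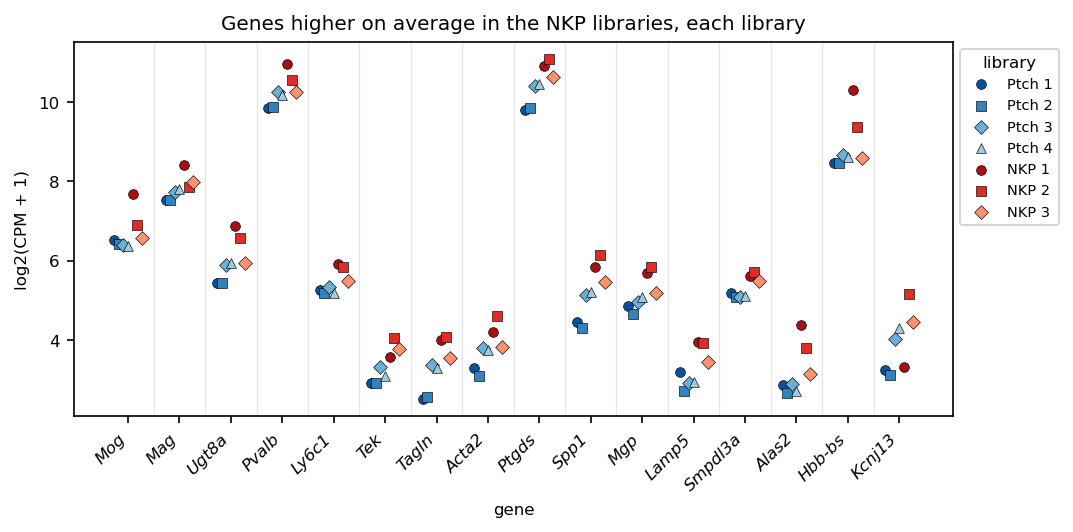
Points give log2(CPM + 1) of 16 genes that were higher on average in NKP, a symbol for each library (blue Ptch, red NKP). NKP 1 is highest for myelin and globin genes, NKP 2 for Kcnj13, Acta2 and Ptgds, and NKP 3 lies nearest to the Ptch libraries for most genes.

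Of the largest higher differences, those not yet described were in Prg4, Slc15a2, Lamp5, Calml4, Hspb1 and Mycbp. Prg4, which encodes the lubricant proteoglycan of joints and linings, was at 1.39, 1.67, 6.89 and 6.67 CPM across Ptch 1 to 4 and 7.33, 10.7 and 8.92 CPM across NKP 1 to 3. Slc15a2, a peptide transporter, was at 4.25, 4.22, 12.5 and 16.2 CPM across Ptch 1 to 4 and 19.1, 19.3 and 16.7 CPM across NKP 1 to 3. Both were low in the 4-month Ptch libraries alone and higher in the other 5 libraries, with an edgeR adjusted p of 0.351 and 0.357. Lamp5, a lysosomal membrane protein of neurons, was at 8.03, 5.57, 6.48 and 6.6 CPM across Ptch 1 to 4 and 14.3, 14.1 and 9.81 CPM across NKP 1 to 3. Smpdl3a, a phosphodiesterase, was at 35.3, 33.1, 32.6 and 33.3 CPM across Ptch 1 to 4 and 47.5, 51.2 and 43.98 CPM across NKP 1 to 3. For both the Ptch libraries were close to each other and all below NKP, and Smpdl3a had a small SE (log2 fold change 0.50, SE 0.09, edgeR adjusted p = 0.112). Hspb1, a small heat shock protein, stood at 0.79 and Mycbp, a partner of Myc, at 0.75 on the log2 scale. Calml4, a calmodulin-like protein, stood at 0.88, or 0.43 without NKP 2. It was at 4.17, 3.12, 6.58 and 5.95 CPM across Ptch 1 to 4 and 6.66, 13.9 and 6.69 CPM across NKP 1 to 3.

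Some genes marked tissue outside the cerebellum. Tph2, the enzyme of serotonin synthesis in raphe neurons of the brain stem, was at 14.7, 15.6, 12.4 and 11.7 CPM across Ptch 1 to 4 and 0.916, 0.728 and 6.91 CPM across NKP 1 to 3. Slc6a4, the serotonin transporter of these neurons, was at 11.5, 10.6, 10.1 and 7.57 CPM across Ptch 1 to 4 and 0.333, 0.168 and 5.13 CPM across NKP 1 to 3. NKP 3 held several times more of each than NKP 1 or NKP 2. Prl, a hormone of the anterior pituitary, was at 0.154, 0.052, 0.415 and 0.841 CPM across Ptch 1 to 4 and 4.25, 40.1 and 0.613 CPM across NKP 1 to 3. Gh, growth hormone of the same gland, was at 0, 0, 6.32 and 4.21 CPM across Ptch 1 to 4 and 20.2, 36.7 and 2.17 CPM across NKP 1 to 3. They were highest in NKP 2 and NKP 1, and NKP 3 lay within the Ptch range. The hindbrain list outside the cerebellum summed to 41.3 to 69.3 CPM over the NKP libraries and 52.2 to 77.1 CPM over the Ptch libraries over the 8 of 25 genes tested. Of these 3 were above 0, and the direction of the list median depended on the libraries. It was -0.24 with all 7, 0.47 age-matched and -0.99 against the 2-month Ptch libraries, and ran from -1.69 without NKP 3 to 0.29 without Ptch 4. Slc6a5, the glycine transporter of brain stem and cerebellar inhibitory neurons, was the member called higher in the age-matched fit, with a log2 fold change of 0.32 over all 7 libraries. The part of neighbouring tissue in the other results was not tested.

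Genes of chromatin complexes were a little lower, by small differences. The COMPASS list of H3 lysine 4 methyltransferase subunits had a median of -0.23, lysine demethylases -0.17, enhancer coactivators -0.15, and genes of PRC2, histone deacetylation or DNA methylation -0.18. Without overlap, 3 of 18, 6 of 21, 6 of 21 and 6 of 23 were lower, against 8.93% of all genes. In the last list Hdac11, a histone deacetylase, was higher without overlap, at 0.18 on the log2 scale. Without NKP 1 the demethylase median was -0.09, without NKP 3 the coactivator median was -0.23, and against the 2-month Ptch libraries the median of the last list was -0.07 (-0.30 age-matched). Ash2l, a core subunit shared by the methyltransferases, was at 64.6, 61.8, 48.8 and 48.5 CPM across Ptch 1 to 4 and 42.1, 41.6 and 39.7 CPM across NKP 1 to 3 (log2 fold change -0.44, SE 0.12, edgeR adjusted p = 0.139). Kmt2b, a relative of Kmt2d, was at 60.4, 60.01, 54.1 and 49.8 CPM across Ptch 1 to 4 and 37.2, 37.2 and 52.1 CPM across NKP 1 to 3. In NKP 3 Kmt2b lay inside the Ptch range, as Kmt2d did. Phf2 and Kdm2b, lysine demethylases, had log2 fold changes of -0.38 and -0.50, and Smarcc1, a remodeller subunit, -0.62. Uhrf1 and Dnmt1, which copy DNA methylation at replication, stood at -3.44 and -0.66. Uhrf1 was at 40.7, 40.1, 15.1 and 11.1 CPM across Ptch 1 to 4 and 0.666, 0.784 and 5.57 CPM across NKP 1 to 3, a spread like that of the mitosis genes.

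Genes of oxidative phosphorylation were higher by small steps. All 37 nuclear complex I genes were above 0, with a median of 0.25 and 15 without overlap (7.03% of all genes), but DESeq2 called 1 (0.73%). Of 39 genes of complexes II to V, 11 were higher without overlap and DESeq2 called 3. Complex I sums were 5185, 5298, 5733 and 5538 CPM across Ptch 1 to 4 and 7642, 6027 and 5764 CPM across NKP 1 to 3. NKP 1 stood apart, NKP 3 was level with Ptch 3, and without NKP 1 the median was 0.10. Ndufc2, a complex I subunit, was at 103, 121, 137 and 127 CPM across Ptch 1 to 4 and 184, 154 and 146 CPM across NKP 1 to 3. Cox7b, a complex IV subunit, was at 248, 240.0, 275 and 265 CPM across Ptch 1 to 4 and 413, 332 and 282 CPM across NKP 1 to 3. The 13 genes of the mitochondrial genome had a median of 0.39 (0.73 age-matched and 0.14 against the 2-month Ptch libraries), and mt-Nd3, a complex I subunit among them, was at 1461, 1616, 2264 and 2278 CPM across Ptch 1 to 4 and 3481, 3019 and 2317 CPM across NKP 1 to 3. For mt-Nd3 the 2-month Ptch libraries were close to NKP 3 and the 4-month ones well below.

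Genes of carbon metabolism differed in direction. Of 22 glycolysis genes 13 were higher without overlap, with a median of 0.18, and 6 of 20 genes of the tricarboxylic acid cycle, against 7.03% of all genes. DESeq2 called 3 and 1 of them higher (0.73% of all genes). Hk2, the hexokinase of growing cells, went against its list at 30.4, 26.4, 18.7 and 14.4 CPM across Ptch 1 to 4 and 11.7, 12.03 and 12.5 CPM across NKP 1 to 3 (log2 fold change -0.89, SE 0.23, edgeR adjusted p = 0.139). Idh2, the mitochondrial NADP-dependent isocitrate dehydrogenase, had a log2 fold change of -0.53, and Mdh1, the cytosolic malate dehydrogenase, 0.36. MYC and ribosome biogenesis genes had a median of -0.27, with 11 of 25 lower without overlap (8.93% of all genes). Nop58, a core protein of small nucleolar RNA particles, was at 42.6, 46.1, 30.4 and 33.5 CPM across Ptch 1 to 4 and 20.5, 20.2 and 25.2 CPM across NKP 1 to 3 (log2 fold change -0.79, SE 0.16, edgeR adjusted p = 0.112). Mycl, a member of the MYC family, was at 45.2, 41.8, 21.6 and 19.3 CPM across Ptch 1 to 4 and 9.74, 7.22 and 13.4 CPM across NKP 1 to 3. Immediate early genes had a median of -0.35, or -0.19 without NKP 2, with Npas4, induced by neuronal activity, at -0.95. The hypoxia (0.03), heat shock (0.11) and interferon and MHC (0.13) lists had medians nearer to that of all genes, and single libraries moved the first 2, to -0.05 for hypoxia without NKP 2 and 0.04 for heat shock without NKP 1. The hypoxia list was split, with 8 members above and 8 below 0, and 3 higher and 3 lower without overlap, and the age-matched fit called 3 higher and 4 lower. Higher without overlap were Slc2a1 (0.28), Bnip3 (0.42) and Ndrg1 (0.50), of which Ndrg1 stood at 0.22 against the 2-month Ptch libraries. Lower without overlap were Hk2 (-0.89), Kdm3a (-0.26) and Egln1 (-0.05).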

How the data were processed

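RNA was measured by Illumina sequencing of libraries from a TruSeq preparation kit, per the labels' protocols. The authors deposited estimated counts per gene in a single table. The submitters' processing notes name Trim Galore, STAR, RSEM and the build GRCm38, with versions not given in the sources used here. Estimated counts were rounded to whole numbers. Genes with at least 10 counts in 3 or more of the 7 libraries entered the test, library sizes were scaled by TMM, and edgeR 4.0.16 (R 4.3.3) was run with its quasi-likelihood F test, robust dispersion and no covariate, with Benjamini-Hochberg adjustment over 15613 genes and a threshold of 0.05. Total counts of 12300430 to 19348991 per library set the precision. The members and the 38 gene lists were chosen with earlier results of these data known. Named genes were Kmt2d, Ptch1, Mki67, Atoh1 and Gli1, the 12 largest differences in each direction with a mean count of at least 100 and groups that did not overlap, members of each list with the smallest p or a sign against their list, genes called by DESeq2 1.42.0 and both age fits, and genes of single libraries. Other genes were named after their values were seen. Of 39769 symbols, 39754 matched RefSeq. Alternatives were RLE and upper quartile scaling, DESeq2, other filters, all 10 libraries, age or sex label as covariate, the replicate number as a block, age-matched libraries, libraries against their sex label left out, and each library left out in turn. The fit was tested on simulated counts.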

Additional observations from a re-analysis of the deposited data

Results flagged for a closer look

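Pcdha7 was the only value, of 183 checked, for which a Ptch library stood far from the other 3. It was at 1.35 CPM in Ptch 2 and listed at 0 in Ptch 1, Ptch 3 and Ptch 4, against 4.00, 3.97 and 5.07 CPM in NKP 1 to 3. Chance marks about 1 in 20 groups of 4 in this way.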

How the results depend on the processing

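The edgeR count of 0 genes past the threshold became 785 with DESeq2, 126 with no filter on low counts, 3444 with age as a covariate, 2527 against the 4-month Ptch libraries, 38 without the 3 that go against the sex label, and 5 against the 2-month Ptch libraries, an alternative chosen after seeing the data. Leaving out each library gave 0 to 250. Of 190 genes named by the rule, 0 passed in edgeR, 105 with DESeq2, 23 with no filter, 157 with age as a covariate, 130 age-matched, 8 without the libraries against the sex label, 1 against 2-month Ptch and 0 to 35 with each library left out. Part of the 190 were chosen by passing these same fits and others by p or difference in these data, so their counts are raised by the choice. Over all genes the shares were 5.03% with DESeq2, 22.1% with age as a covariate, and 6.48% higher and 9.71% lower age-matched. Of 759 list genes, 0 passed in edgeR, 151 with DESeq2, 23 with no filter, 341 with age as a covariate, 256 age-matched, 9 without those against the sex label and 0 to 40 with each library left out. Counts with RLE or upper quartile scaling, edgeR's own filter, all 10 libraries or the sex label as covariate were 0. Of 2736 values of single genes under 19 alternatives, 2328 kept direction and side of the threshold, 401 came past it and 7 changed sign: Ptch1 (-0.048), Gfap (0.0057) and Neurod1 (-0.28) against the 2-month Ptch libraries, Neurod1 also without Ptch 1, Ptch 2 or NKP 2 (from -0.088 to 0.24 with each library left out), and Rpl34-ps1, high in NKP 2, without that library (-0.081, and up to 2.34 with another library left out). The replicate number as a block gave 2 genes, and same-numbered libraries did not deviate together (correlations of 0.0104, -0.231 and -0.216 for numbers 1 to 3), so the numbers do not show a pairing. The causes of these changes were not tested. Genes with few counts in NKP, such as Atoh1, carry large errors, and age, the level of proliferation genes and Y-linked expression moved together within the Ptch group and cannot be told apart.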

Other observations

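Dlx2, a homeobox gene of forebrain interneurons with too few counts for the test, had 5 and 11 counts in Ptch 3 and Ptch 4 and 0 in the other 5 libraries. The forebrain and midbrain list summed to 343 to 388 CPM in Ptch and 401 to 444 CPM in NKP over 15 tested genes, where the median difference was -0.21 on the log2 scale and 3 of the 15 were above 0. The sum and the median differ in sign, and most of the sum was Ppp1r1b, a phosphoprotein of striatal and Purkinje neurons, at 212 to 277 CPM in Ptch and 281 to 348 CPM in NKP. The median was -0.68 without NKP 3, -0.10 without NKP 1, -0.43 age-matched and -0.07 against the 2-month Ptch libraries.

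Genes highest in a single library were also read. In NKP 1, Gal3st1, a sulfotransferase of myelin lipids, was at 26.7 CPM, with 14.7 CPM in the next library. In NKP 2, Rpl34-ps1, a ribosomal pseudogene whose reads may belong to its parent gene, was at 119 CPM, with 29.6 CPM in the next. In NKP 2, Slc6a20a, an amino acid transporter, was at 23.9 CPM, with 12.6 CPM in the next library. NKP 3 had no gene at more than 1.5-fold the next library, and its highest ratio was 1.40, in Osbpl7 (25.5 and 18.2 CPM).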
